A study of Drosophila melanogaster with 6 samples.

Results

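The compact core regions are short stretches of the Drosophila melanogaster genome that carry a peak of the chromatin protein Cmi in each of 4 peak lists, from embryos, larvae, prepupae and a cell line. All peaks of the 4 lists that overlapped or touched were merged, and a merged region was kept when it lay on arm 2L, 2R, 3L or 3R, held at least 1 peak of every list and measured less than 4000 bp. This left 916 of the 19648 merged regions of the series (4.66%, exact binomial 95% interval 4.37 to 4.97). They made up 67.8% (65.2 to 70.3) of the 1351 regions with all 4 lists on these arms. The other 435 measured 4000 bp or more and are called broad core regions here. Members were thus chosen by their peak positions, by presence in every list and by short length, so neither presence nor length is a result.

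Cmi, also called Lpt, was immunoprecipitated from formaldehyde-fixed chromatin with an antiserum raised against part of the protein, and the DNA was sequenced (ChIP-seq). The lists came from whole larvae taken at the wandering stage of the third instar (W3L), from whole animals at the white prepupa stage (Wpp) and from cultured S2 cells, with 1 ChIP library each. The labels give all of these, S2 cells included, the genotype Y cn bw sp. The embryo list (E0-8 in its name) rests on data published before and has no sample in the series. Whole animals mix many tissues, so a peak in every list does not place Cmi on that sequence in every cell. S2 is a line grown in culture. Input libraries without antibody were sequenced beside each ChIP, but no values of theirs were used here.

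Cmi belongs to the MLR complex of the fly, which holds the histone methyltransferase Trr and is related to the mammalian KMT2C and KMT2D complexes. The complex is known for mono-methylation of lysine 4 of histone H3 at enhancers. Cmi corresponds to the part of KMT2C and KMT2D that fly Trr lacks, and carries PHD fingers, domains that read histone tails. In flies the complex is a coactivator of genes regulated by the steroid hormone ecdysone, whose pulse at the end of larval life starts metamorphosis. Wandering larva and white prepupa lie on either side of that transition.

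Each peak is known only by its chromosome and its borders on build dm3, with no height, score or p-value. Coordinates are counted from 1. Sequencing depth is unknown, so a longer list or peak and a deeper library cannot be told apart. The larva, prepupa and S2 lists have 1 ChIP library each, and how many libraries the embryo list rests on is not known here, so there is no replicate error and no test of a difference between lists. Intervals beside shares cover the number of regions only, and neighbouring regions are not independent. No genome or gene annotation of dm3 was used, so no region is tied to a gene or printed as sequence here.

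The clearest members were compact blocks in which the same sequence was bound in embryos, larvae, prepupae and S2 cells with nearly the same borders. The block with the largest part in common lay on 2R from 2549284 to 2551620, a merged length of 2337 bp. The embryo peak there covered 2305 bp, the larval peak 2315 bp, the prepupal peak 2130 bp and the S2 peak 2309 bp, and 2116 bp (90.5%) lay under all 4. Each list had a single peak there, and the prepupal one was the shortest. On 3R from 228519 to 230306 the embryonic peak measured 1706 bp, the larval 1756 bp, the prepupal 1478 bp and the S2 peak 1584 bp, with 1456 bp (81.4%) in common. On 3R from 10547132 to 10550449 they were 3212, 2955, 2843 and 3262 bp in the same order, with 2676 bp (80.7%) in common. The prepupal peak was again the shortest of the 4 in both blocks. On 2R from 8866475 to 8869258 the order was different, since the larval peak was the shortest, with 2256 bp, while the embryonic peak had 2592 bp, the prepupal 2693 bp and the S2 peak 2695 bp. Here 2233 bp (80.2%) were in common. The next member, on 3R from 26884244 to 26887403, held 2 embryonic peaks and 1 of each other list, and 78.3% of its 3160 bp were in common.

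Common sequence was longest on 2L from 9567419 to 9571239, where 2929 bp lay under a peak of every list. The embryo list covered 3799 bp of it, the larva list 3436 bp, the prepupa list 3251 bp and the S2 list 3391 bp. The prepupal sequence there was divided into 3 peaks, while the other lists had 1 each. Further long blocks were on 2L from 19423147 to 19427140 (2605 bp in common), on 3L from 13994962 to 13998943 (2595 bp) and on 3R from 14222118 to 14226098 (2522 bp). In the last of these the common sequence was the prepupal peak itself, which lay wholly inside the other 3.

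**Figure D1:**
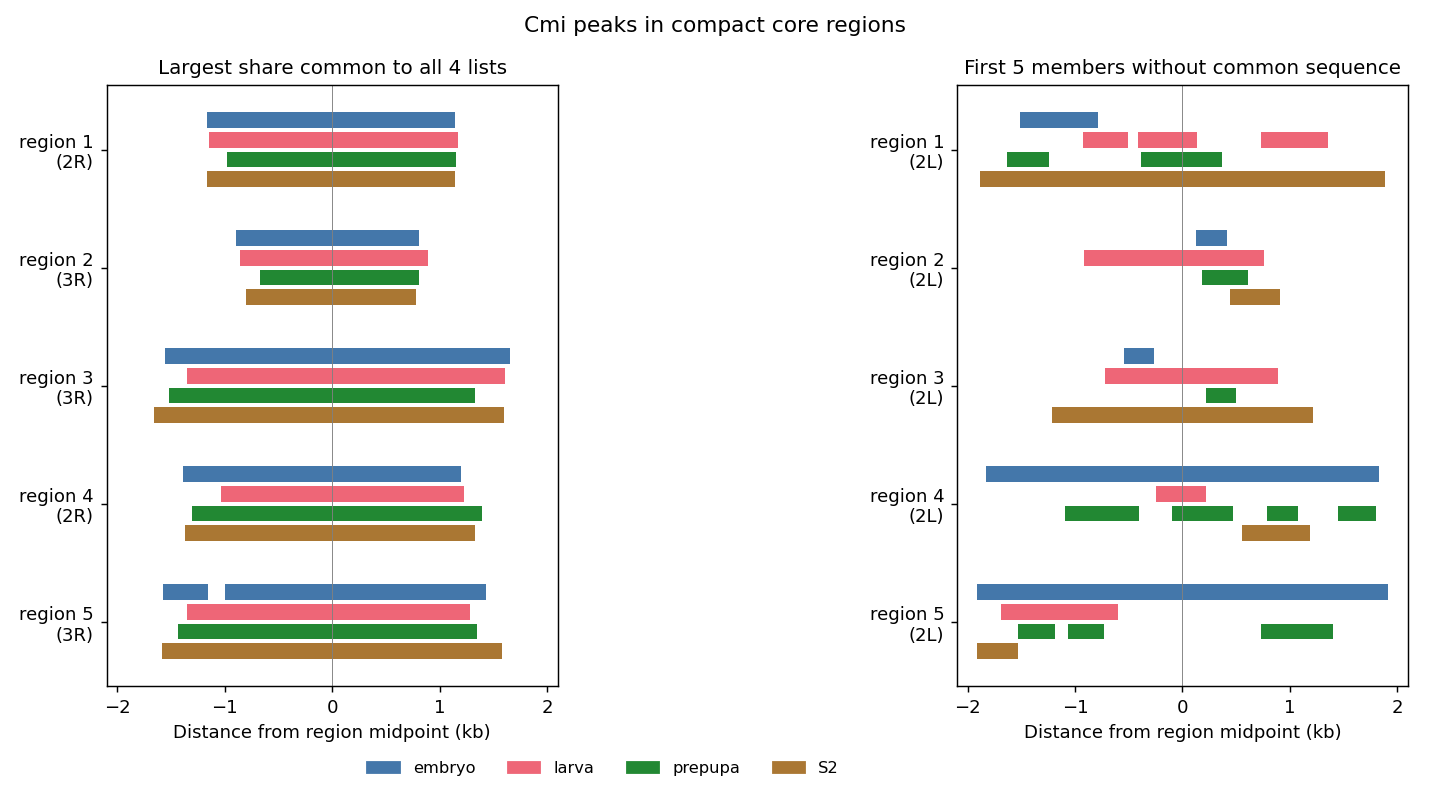
Peaks of each list (bars, coloured by list) in 10 compact core regions, drawn by distance from the region's midpoint in kb. On the left are the 5 members with the largest part in common (78.3% to 90.5% of merged length), where the 4 bars nearly coincide; on the right are the first 5 by position without common sequence, where short peaks of some lists lie apart under a long peak of another.

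Most members were looser than these. Sequence common to all 4 lists was present in 827 of the 916 members (90.3%, 88.2 to 92.1). Members are joined by overlap, which builds part of this share into the selection, and it was 57.9% of the regions found with every peak set to 500 bp. Its median length was 520.5 bp, with quartiles of 278 and 876 bp, and it made up a median of 24.3% of the merged length. In 116 members (12.7%, 10.6 to 15.0) it reached 50% or more. In the broad core regions the common part was of like proportion, with a median of 26.2% and sequence in common in 404 of 435 (92.9%, 90.0 to 95.1). In all, the members held 2.21 Mb of merged sequence, of which 0.583 Mb was common to the 4 lists.

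The remaining 89 members had no base under a peak of every list. In 86 of them at least 1 of the 6 pairs of lists did not overlap at all, and in 3 every pair overlapped at some point without a place for all 4. These regions are chains, joined by a peak that bridges others. On 2L from 3057523 to 3059945, S2 cells had a peak of 2423 bp and larvae one of 1612 bp, while the embryonic peak (280 bp, from 3058189 to 3058468) and the prepupal peak (279 bp, from 3058954 to 3059232) lay apart under them. On 2L from 300091 to 301914 a larval peak of 1668 bp spanned an embryonic peak of 290 bp and a prepupal peak of 424 bp, and the S2 peak of 472 bp began after the embryonic one ended. Embryonic peaks were the bridge in another pair of regions. From 4369843 to 4373500 on 2L an embryonic peak of 3658 bp spanned 4 prepupal peaks, 1 larval peak of 466 bp and 1 S2 peak of 638 bp. From 5042700 to 5046527 an embryonic peak of 3825 bp spanned 3 prepupal peaks and a larval peak of 1093 bp. An S2 peak of 386 bp lay at its left end, nearly all of it under the embryonic peak. That S2 peak ended at 5043085, and the first prepupal peak began at 5043088. From 134335 to 138098 the bridge was an S2 peak of 3764 bp over 1 embryonic, 2 prepupal and 3 larval peaks.

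No single list accounted for the missing common sequence. Of the 89 regions, 49 had sequence common to the other lists once the S2 list was set aside, 45 once the embryo list was, 42 once the prepupa list was and 20 once the larva list was. In 66 regions 2 or more lists could each be set aside with this outcome, in 22 only 1 could, and in 1 region none could. Over all 916 members, setting the prepupa list aside lengthened the common sequence by a median of 138 bp, whereas the median gain was 0 bp for each of the other lists.

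Peak number was low by selection but varied between lists. Exactly 1 peak of each list was found in 356 members (38.9%, 35.7 to 42.1), against 12 of 435 broad core regions (2.76%, 1.43 to 4.77). This share was 73.6% of the regions found with every peak set to 500 bp, and 66.6% with only the peaks above their list's median width. The prepupa list was the most divided, with 2 or more peaks in 338 members (36.9%, 33.8 to 40.1). The embryo list had 2 or more in 251 (27.4%, 24.5 to 30.4), the S2 list in 186 (20.3%, 17.7 to 23.1) and the larva list in 137 (15.0%, 12.7 to 17.4). The prepupa list was also the most divided in broad core regions, at 85.1%, against 70.6% (embryo), 60.5% (larva) and 56.3% (S2). Regions below the length limit with all animal lists but no S2 peak gave 24.7% (prepupa), 15.4% (embryo) and 10.6% (larva). Of the 338 members with several prepupal peaks, 258 (76.3%, 71.4 to 80.8) had at least 2 of them touching a single larval peak. The reverse, several larval peaks touching a single prepupal peak, was found in 41 of 137 members (29.9%, 22.4 to 38.3). Several S2 peaks touched a single embryonic peak in 74.7% of the members with several, and embryonic peaks a single S2 peak in 70.9%. Prepupal peaks touched a single S2 peak in 61.8% and a single embryonic peak in 57.7%. Shares against a single prepupal peak were low for the other lists too, at 39.0% for embryonic and 30.6% for S2 peaks. The remaining pairs lay between 53.3 and 65.6%.

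Covered length, the number of base pairs of a region under peaks of a list, was lowest by median in the prepupa list. The median per member was 1616 bp for the embryo list, 1504 bp for the larva list, 1059 bp for the prepupa list and 1429 bp for the S2 list. The quartiles were 1063 and 2283 bp, 1008 and 2087 bp, 572 and 1640 bp, and 813 and 2154 bp in the same order, so the lists overlapped widely. The prepupa list had the shortest covered length in 454 members (49.6%, 46.3 to 52.9) and the longest in 63 (6.88%, 5.33 to 8.71). The embryo list had the longest in 373 (40.7%, 37.5 to 44.0), the S2 list in 268 (29.3%, 26.3 to 32.3) and the larva list in 212 (23.1%, 20.4 to 26.0). This was not particular to the members. In broad core regions the prepupa list also had the lowest median, 3268 bp, against 4172 bp (embryo), 3813 bp (larva) and 4453 bp (S2). Peaks of the prepupa list were short genome-wide, with a median width of 492 bp, where the embryo, larva and S2 lists had 537, 792 and 711 bp, and its smallest peak was 220 bp, where theirs were 280, 320 and 340 bp. A difference of peak calling and one of binding cannot be told apart here.

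Lengths at a given member were seldom equal across the lists. The longest covered length exceeded the shortest by a median of 2.75-fold, and by 1.09-fold to 15.9-fold over all members. It stayed below 2-fold in 251 members (27.4%, 24.5 to 30.4) and reached 5-fold in 181 (19.8%, 17.2 to 22.5). All 24 possible orders of the lists by covered length occurred. The most frequent, embryo over S2 over larva over prepupa, accounted for 128 members (14.0%), followed by embryo over larva over S2 over prepupa with 100 (10.9%). A single peak spanned the whole region in 259 members (28.3%, 25.4 to 31.3). It was embryonic in 125, from S2 cells in 81, larval in 41 and prepupal in 12.

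**Figure D2:**
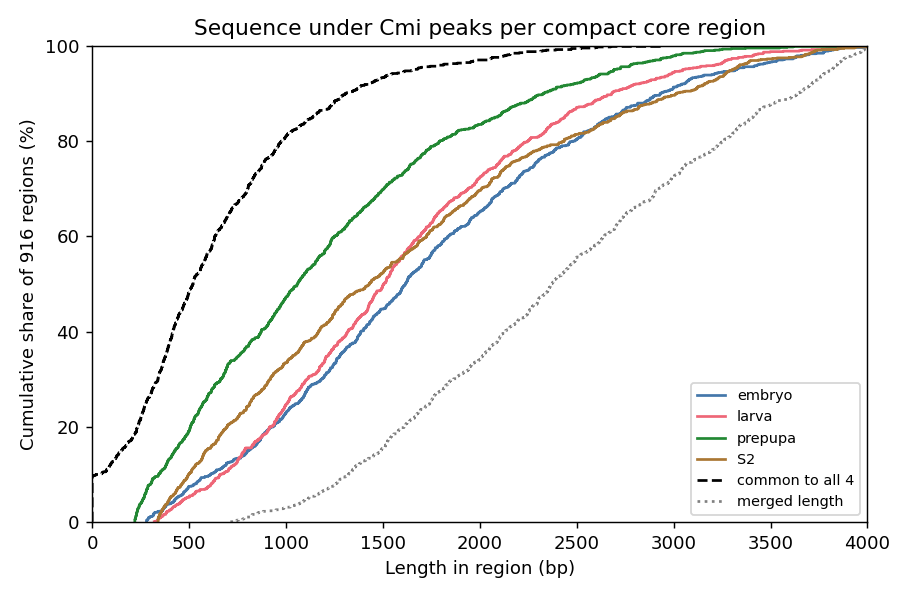
Cumulative share of the 916 compact core regions (vertical axis, %) with a length up to the value on the horizontal axis (bp): covered length of each list (solid lines), sequence common to all 4 (dashed) and merged length (dotted). The prepupa line lies left of the other lists over nearly its whole range, with a median of 1059 bp, and the dashed line starts at the 89 regions without common sequence.

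Larva and prepupa were the closest pair by midpoint, though not by shared sequence. Sequence under both lists, as a share of that under either, had a median of 57.6% for embryo and larva. It was 56.8% for larva and prepupa, 54.6% for larva and S2, and between 44.4 and 51.0% for the other pairs. The midpoints of their covered spans were a median of 159.5 bp apart (quartiles 67.9 and 316 bp), and 67.6% of members had them within 250 bp. For the other pairs the median was 216 bp (larva and S2), 234 bp (embryo and larva), 248 bp (embryo and S2), 250.5 bp (embryo and prepupa) and 256 bp (prepupa and S2). No pair was shifted to one side by much, since the median signed distances lay between -22.8 and 24.8 bp. The spread of all 4 midpoints was within 250 bp in 171 members (18.7%, 16.2 to 21.3) and within 500 bp in 455 (49.7%, 46.4 to 53.0).

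Covered lengths of larva and prepupa also varied together more than those of other pairs. Across the 916 members Spearman's rho was 0.65 for larva and prepupa, and between 0.22 and 0.35 for the other 5 pairs. These are descriptions across regions of single libraries, and the lengths of a member share its merged length as an upper bound. Of the prepupal sequence in the members, 85.6% lay under a larval peak, 74.7% under an embryonic and 72.9% under an S2 peak. The prepupal peaks of a member were wholly inside larval peaks in 424 members (46.3%, 43.0 to 49.6), while larval peaks were wholly inside prepupal ones in 67 (7.31%, 5.71 to 9.20). Containment was nearly as frequent in embryonic peaks, which held all prepupal peaks of 409 members (44.7%, 41.4 to 47.9), and S2 peaks did so in 331 (36.1%, 33.0 to 39.3). The prepupal peaks were also the shorter ones, and the part of width in these shares was not tested.

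The larva list overlapped each other list in the most members. It met the S2 list in 907 of 916 (99.0%, 98.1 to 99.5), the prepupa list in 905 (98.8%, 97.9 to 99.4) and the embryo list in 902 (98.5%, 97.4 to 99.2). Embryo and prepupa overlapped in 894, embryo and S2 in 892, and prepupa and S2 in 886 (96.7%, 95.4 to 97.8). Since members are joined by overlap, shares near 100% are built into the selection, and only the order of the pairs is described.

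**Figure D3:**
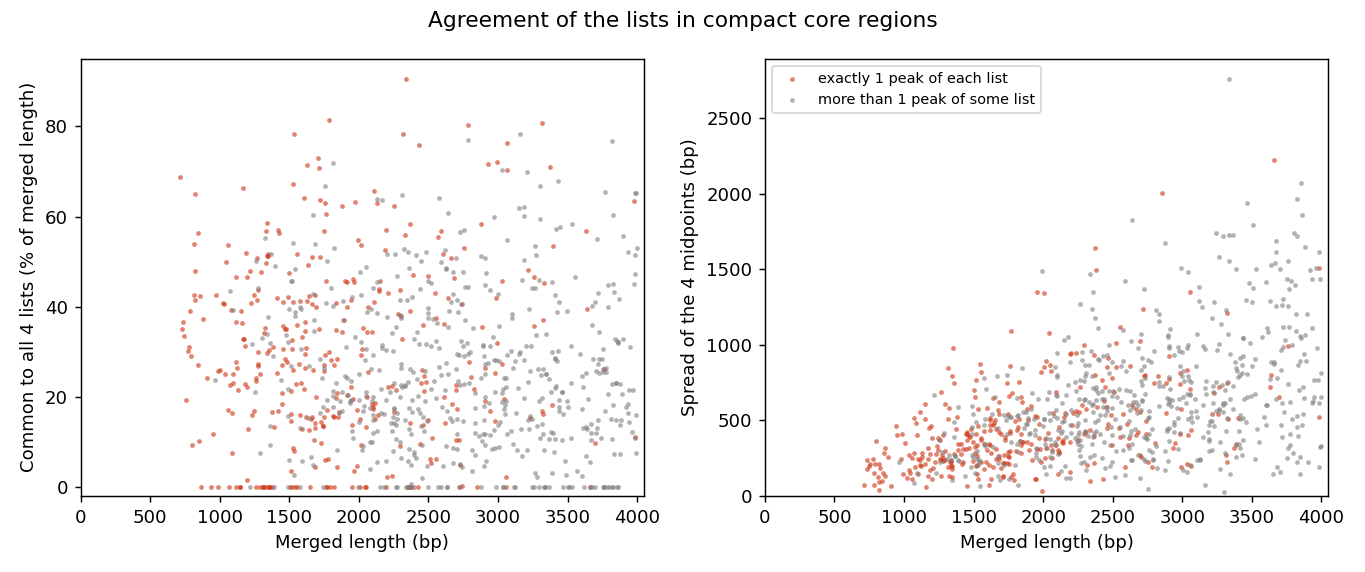
Share of merged length common to all 4 lists (left, %) and spread of the 4 midpoints (right, bp) against merged length (bp) for the 916 members, with members that held exactly 1 peak of each list in red. The midpoints spread wider in longer members, while members at 0% common sequence occur along nearly the whole range of length.

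The make-up of the members varied with length within the limit. The 28 members below 1000 bp had exactly 1 peak of each list in 27 cases. This share was 69.0% (63.3 to 74.3) of the 284 members of 1000 to 2000 bp, 30.4% (25.6 to 35.5) of the 352 of 2000 to 3000 bp and 10.3% (6.85 to 14.8) of the 252 of 3000 to 4000 bp. The median common sequence was 252, 414, 578 and 746 bp in these classes, and its median share of the merged length 32.4, 27.1, 23.0 and 21.8%. Members without common sequence were found at each length, in 10.7, 10.2, 7.67 and 11.9% of the classes, with intervals that overlap. The median spread of the midpoints was 206, 340, 553 and 725 bp. A longer region has room for more peaks, a longer common part and a wider spread. Part of these trends is thus built into the classes, and how much was not tested.

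The shortest members show how small a region bound in every list could be. The smallest, on 3R from 15628106 to 15628818, measured 713 bp and was spanned by its S2 peak. Its embryonic, larval and prepupal peaks were of like size, 521, 533 and 505 bp, and 490 bp (68.7%) were in common. The next, on 3R from 10537575 to 10538305 (731 bp), had 469, 715, 533 and 454 bp in embryos, larvae, prepupae and S2 cells, with 256 bp in common. On 3L from 445866 to 446599 (734 bp) the prepupal peak was the widest, with 714 bp, while the embryonic had 540 bp, the larval 458 bp and the S2 peak 392 bp. On 3L from 18014066 to 18014811 (746 bp) the S2 peak, of 340 bp, was as short as any in that list. The fifth, on 2L from 20449592 to 20450346 (755 bp), had only 146 bp in common, and its prepupal peak measured 271 bp.

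At the other end, regions on either side of the length limit differed by a few bp in merged length. The longest members measured 3997 bp (2R from 8844324 to 8848320) and 3994 bp (2L from 19423147 to 19427140 and 2R from 11620009 to 11624002). Their common sequence was 2122, 2605 and 634 bp. The shortest regions beyond the limit measured 4012 bp (3L from 17423098 to 17427109 and 3L from 18987830 to 18991841) and 4013 bp (2L from 8125713 to 8129725), with 237, 53 and 0 bp in common. The named regions just inside thus had more sequence in common than those named just outside. The classes as wholes had the opposite order, with a median of 520.5 bp in the members and 1504 bp in the broad core regions.

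The change from larva to prepupa was followed through the ratio of covered lengths, with 1.5-fold as the mark. Members whose prepupal sequence was 1.5-fold longer than the larval numbered 52 (5.68%, 4.27 to 7.38), where 11.6% of all 2992 regions with both lists on the 4 arms passed the same mark. It was 1.5-fold shorter in 395 members (43.1%, 39.9 to 46.4), against 33.5% of those regions. The median ratio was 0.72 in the members and 0.82 in those regions. With a mark of 2-fold 2.84% of members were longer (5.58% of those regions) and 23.7% shorter (18.0%), and by the widest single peak 4.80% were longer (11.3%) and 54.0% shorter (45.0%). Direction depended on scale: with each length divided by the median peak width of its list, 27.3% of members were longer in prepupae (38.7% of all regions with both lists) and 16.5% shorter (12.0%). On both scales the members had smaller shares of longer and larger shares of shorter prepupal sequence than all regions with both lists. All regions with both lists include the members and regions beyond the length limit. For the 2473 below the limit, members included, the 1.5-fold shares were 12.5% longer and 36.5% shorter. With scaled lengths they were 38.1% and 13.3%. The differences from the members were not tested.

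The members with extreme ratios show both directions in single places. On 2R from 14178486 to 14181153 the prepupal peak covered 2182 bp and the larval peak 490 bp, beside 2205 bp in embryos and 1672 bp in S2 cells. On 2R from 9921922 to 9925674 the prepupa list covered 2794 bp in 4 peaks and the larva list 339 bp, a ratio of 8.24, the highest of the members. The larva list was the short one of the 4 in both places. Low ratios were found on 2R from 14012585 to 14015263, with a prepupal peak of 225 bp and a larval peak of 2209 bp, and on 3L from 17905422 to 17907613, with 223 bp and 2032 bp. In the first of these the embryo list covered 2272 bp, and in the second the S2 list covered 1680 bp and the embryo list 309 bp.

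Between larva and embryo, the larval sequence was 1.5-fold longer in 202 members (22.1%, 19.4 to 24.9), against 16.8% of all 2981 regions with both lists. It was 1.5-fold shorter in 250 members (27.3%, 24.4 to 30.3), against 39.0% of those regions. Scaled by the median peak width of each list, 11.1% of members were longer in larvae (8.96% of all such regions) and 56.4% shorter (64.0%). With a mark of 2-fold 13.2% were longer (10.6%) and 12.2% shorter (24.1%), and by the widest single peak 26.2% were longer (20.8%) and 27.3% shorter (39.0%). All regions with both lists include the members and regions beyond the length limit. Of the 2473 below the limit, members included, 16.2% were longer in larvae and 40.8% shorter at 1.5-fold. The median ratio was 0.79 in all regions with both lists and 0.76 in those below the limit. It was 0.90 in the members and 0.93 in the broad core regions. A longer larval share than in all regions was thus not particular to the members. The highest ratios came from narrow embryonic peaks. On 3R from 16089264 to 16091983 the larval peak spanned all 2720 bp and the embryonic peak covered 280 bp, the smallest width in that list. On 2L from 1649308 to 1652119 the lengths were 2756 bp in larvae and 297 bp in embryos. The lowest ratios came from embryonic peaks that spanned the region, with 401 bp in larvae and 3617 bp in embryos on 2L from 8542781 to 8546397, and 437 bp and 3464 bp on 3R from 21859948 to 21863411.

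**Figure D4:**
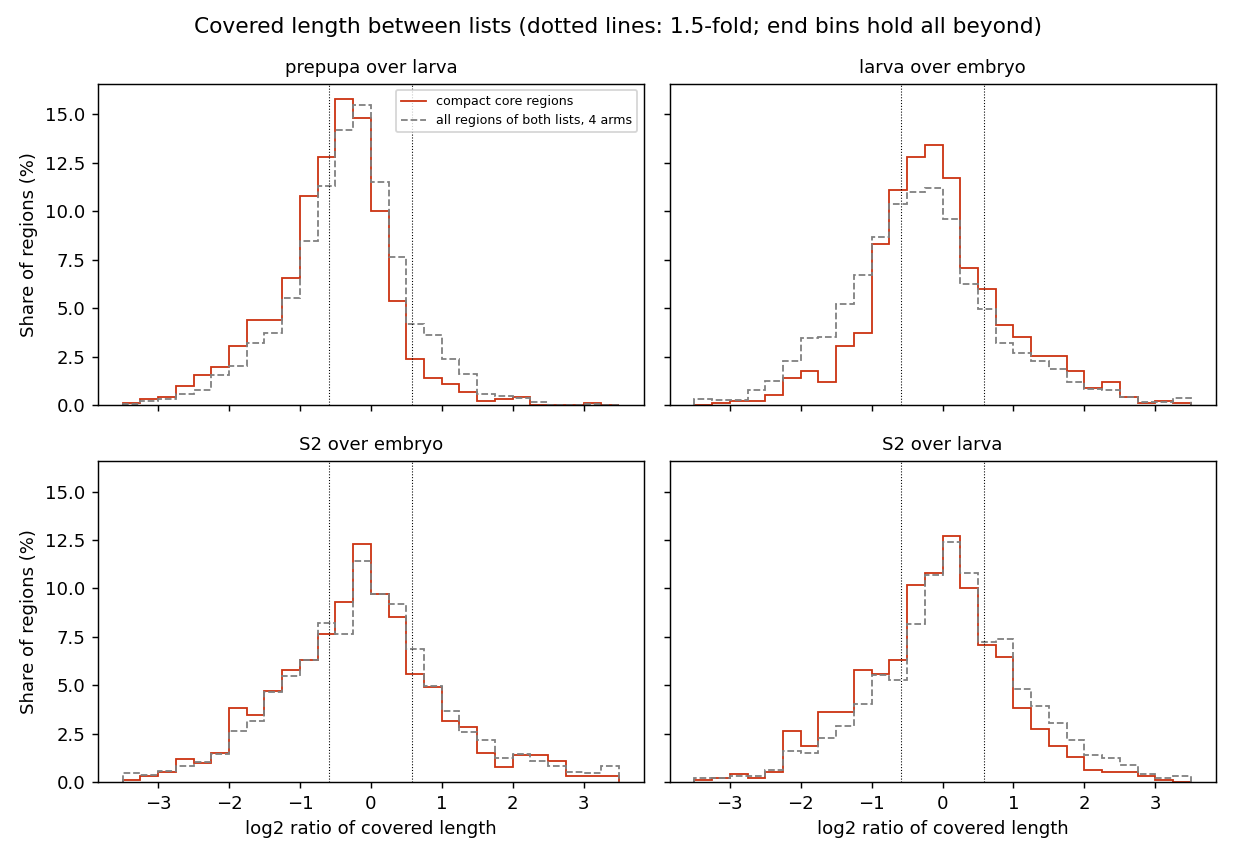
Log2 ratio of covered length for 4 pairs of lists (horizontal axis) in the 916 compact core regions (red) and in all regions of the 4 arms with both lists (grey, dashed), as share of regions in % (vertical axis), with dotted lines at 1.5-fold. The red line lies left of the grey one for prepupa over larva (median ratio 0.72 against 0.82) and right of it for larva over embryo (0.90 against 0.79). In the broad core regions, not drawn, the median was 0.87 for prepupa over larva and 0.93 for larva over embryo. The grey set includes the members. Its regions below the length limit, not drawn separately, had medians of 0.80 and 0.76 in the same order.

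The S2 line was set beside the embryo, from whose cells it was once derived, and beside the larva. S2 sequence was 1.5-fold longer than embryonic in 200 members (21.8%, 19.2 to 24.7), close to the 24.2% of all 2438 regions with both lists, and 1.5-fold shorter in 308 (33.6%, 30.6 to 36.8), close to their 32.4%. With lengths scaled by the list's median peak width the shares were 13.4% longer and 47.5% shorter, against 15.1% and 45.4%. With a mark of 2-fold they were 13.2 and 22.6%, against 14.9 and 20.8%, and by the widest single peak 26.7 and 35.9%, against 29.2 and 34.4%. Relative to larvae, S2 sequence was 1.5-fold longer in 206 members (22.5%, 19.8 to 25.3) and 1.5-fold shorter in 261 (28.5%, 25.6 to 31.5). Among all 2018 regions with both lists these shares were 30.7% and 22.9%. Scaling gave 27.4% longer and 24.7% shorter, against 35.8% and 19.6%, so the more frequent direction among the members depended on the scale. With a mark of 2-fold 11.9% were longer and 19.1% shorter, against 18.5% and 14.0%. By the widest single peak the shares were 22.9% and 32.6%, against 32.6% and 26.2%. In both comparisons all regions with both lists include the members and regions beyond the length limit. Of the 1970 below the limit with S2 and embryonic peaks, 22.4% were 1.5-fold longer in S2 cells and 34.6% shorter. Of the 1555 with S2 and larval peaks, 29.7% were longer in S2 cells and 23.6% shorter.

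Single members ranged from S2 peaks that spanned the region to S2 peaks near the smallest of that list. On 2R from 3550802 to 3554140 the S2 peak covered all 3339 bp and the embryonic peak 290 bp, and on 3R from 10528329 to 10532024 they covered 3696 bp and 366 bp. In the region on 3R the embryonic peak was at the same time the whole of the common sequence. The opposite was found on 2L from 5042700 to 5046527, with 386 bp in S2 cells and 3825 bp in embryos, and on 3R from 2795570 to 2799559, with 432 bp and 3990 bp. Against the larva list, the S2 list covered 3205 bp where the larva list had 339 bp on 2R from 9921922 to 9925674. It covered 2913 bp against 380 bp on 3R from 26285442 to 26288354. It covered 348 bp against 3405 bp on 3R from 22791915 to 22795419, and 405 bp against 3767 bp on 2R from 10152686 to 10156470. In both of these last regions the prepupa list had 4 peaks, with 2148 and 1873 bp.

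A related class of regions held embryonic, larval and prepupal peaks but none from S2 cells. On the same arms and below the same length there were 734. The members exceeded them in covered length in each animal list, with medians of 1616 bp and 1171 bp for the embryo list, 1504 bp and 946 bp for the larva list, and 1059 bp and 792 bp for the prepupa list. The members were also longer, with a median merged length of 2370.5 bp against 1553 bp. As a percent of merged length, median cover was lower in the members for the embryo list (80.5 against 84.1) and the prepupa list (48.9 against 57.6). For the larva list it was higher (69.4 against 67.5). Only the members include S2 peaks in their merged length, and these held at least 1 outer edge in 431 members (47.1%, 43.8 to 50.3). A longer merged length and a lower percent of cover are thus partly built into the classes. Width was not matched between the classes, and these differences were not tested. By arm, 2R held 28.8% (25.9 to 31.9) of members and 20.2% (17.3 to 23.3) of the regions without S2, while 2L held 17.7% (15.3 to 20.3) and 24.8% (21.7 to 28.1).

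The members were spread over the 4 arms, with 162 on 2L, 264 on 2R, 217 on 3L and 273 on 3R. Per Mb of arm up to its last peak this was 7.04, 12.5, 8.85 and 9.78. Broad core regions had nearly the same division, with 15.9, 28.5, 23.2 and 32.4% on 2L, 2R, 3L and 3R, where the members had 17.7, 28.8, 23.7 and 29.8%. Compact regions made up between 65.9% (3R, 61.2 to 70.5) and 70.1% (2L, 63.8 to 76.0) of the core of an arm. Of all 16276 merged regions of these arms, 22.6% were on 2L and 23.7% on 2R. The members on the 4 arms were alike in form: their median merged length was 2458, 2366, 2311 and 2358 bp and their median common share 24.7, 23.1, 24.1 and 25.4%. Median covered length in S2 cells lay between 1254 bp on 2L and 1529.5 bp on 2R, and in prepupae between 965 bp on 3R and 1200 bp on 2L.

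Few members stood alone. The nearest merged region of any kind was a median of 310 bp from the member's edge (quartiles 114 and 806 bp), where the median was 285 bp for broad core regions, 366 bp for the regions of the 3 animal lists without S2 and 455 bp for all merged regions of the 4 arms. It lay within 1 kb in 713 members (77.8%, 75.0 to 80.5), and in 82.3, 72.9 and 68.7% of those sets in the same order. A median of 6 other regions lay within 10 kb, the same as for all merged regions. The nearest region was a further core region in 108 members (11.8%, 9.77 to 14.1), where core regions were 8.30% of all regions. It held an embryonic peak alone in 317 members (34.6%, against 45.7% of all regions) and an S2 peak alone in 129 (14.1%, against 8.71%). These differences were not tested. The nearest other member was a median of 17449 bp away.

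The merging rule decided some of this isolation. Gaps were as small as 1 bp on 2R from 13603153 to 13605517, and 2 bp on 2R from 2601283 to 2603802 and on 3L from 8758639 to 8760395. A shift of 1 or 2 bp in a peak border would have joined each of them to its neighbour. At the other extreme, 11 members (1.20%, 0.601 to 2.14) had no other region within 10 kb. The most isolated was on 3L from 6543078 to 6546795, 31356 bp from the next region, with 2 peaks of each list and 559 bp in common. The next were on 3L from 5269947 to 5271555 (27388 bp) and on 3R from 16716221 to 16717836 (20685 bp). In the first of this pair the embryonic peak, 1033 bp, lay wholly inside the larval, prepupal and S2 peaks, and 64.2% of the region was common to all 4. Its larval peak spanned the region, 1609 bp.

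Some windows along the arms held several members. Whether members gathered beyond the density of all merged regions was not tested. Of the 1934 windows of 50 kb on the 4 arms, 624 held at least 1 member and 204 held 2 or more. The most crowded window, on 3R from 10500001 to 10550000, held 6 members and 1 broad core region among 24 merged regions of any kind. Its members differed widely: the largest common share in it was 80.7% and the lowest 9.39%. Another 8 windows held 5 members each. The first of these by arm and start were neighbours on 2R, from 8850001 to 8900000 and from 8900001 to 8950000. They held 26 and 22 merged regions of any kind. In these 100 kb the prepupa list had 20 and 22 peaks, beside 23 in the window on 3R. There were 24 and 11 peaks of the embryo list, 7 and 7 of the larva list and 6 and 7 of the S2 list. The surroundings of these neighbours, 2R from 8500001 to 9000000, held 20 members among 127 merged regions. No other window of 500 kb held more than 12 members. Within the first of these neighbours the block from 8866475 to 8869258 described above had 80.2% of its length in common, and the member from 8877880 to 8880197 had 78.3%. The members that follow, from 8883127 to 8886847 and from 8891192 to 8895039, had 43.1 and 15.0%, and the last, from 8895137 to 8897286, had no common sequence.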

How the data were processed

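Chromatin from S2 cells, wandering larvae and white prepupae was used for ChIP-seq with Cmi antiserum, per the labels' protocols. The authors deposited 1 peak list per ChIP sample and 1 embryo list, each with 3 columns (chromosome, start, end) and no other value. The submitters' processing notes list BWA, MACS2 and build dm3. Versions, the peak threshold and the use of input are not given in the sources at hand. Starts were taken to count from 0 and are printed counted from 1.

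Peaks were merged where they overlapped or touched, and each list's covered length, midpoint and the sequence common to all lists were computed per region. Merging was tested on simulated lists. Members, lists of quantities and comparisons were chosen with earlier results of these data known. Regions named are those with the largest common share, longest common sequence, shortest length, extreme distances and ratios, the first without common sequence, those next to the length limit and the densest windows. The crowded windows on 2R were described after their values were seen. Intervals are Clopper-Pearson. Alternatives changed the length limit, merging, peak width, peak filter, lists, fold mark and scale. No motif or gene content was analysed, since no dm3 genome or annotation was used. Python 3.11.15, numpy 2.4.6, pandas 2.3.3, scipy 1.17.1 and matplotlib 3.10.9 were used.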

Additional observations from a re-analysis of the deposited data

How the results depend on the processing

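The number of members was 664 with a limit of 3000 bp, 1056 with 5000 bp and 827 with common sequence required. It fell to 458 with only the peaks above their list's median width, which leaves fewer peaks, and came to 1872 with the S2 list set aside, 1293 without the embryo list, 1271 without the prepupa list and 1096 without the larva list. Each of these asks for fewer lists, and why the count differs between them was not tested. The share with exactly 1 peak of each list was 49.7% at 3000 bp, 34.4% at 5000 bp, 73.6% with every peak set to 500 bp and 66.6% with wide peaks. Common sequence was found in 57.9% with every peak set to 500 bp and in 94.3% with wide peaks. Shares past the mark are given in the order prepupa over larva, larva over embryo, S2 over embryo and S2 over larva. With the widest single peak 4.80, 26.2, 26.7 and 22.9% were longer and 54.0, 27.3, 35.9 and 32.6% shorter. With a mark of 2-fold 2.84, 13.2, 13.2 and 11.9% were longer and 23.7, 12.2, 22.6 and 19.1% shorter. With scaled lengths 27.3, 11.1, 13.4 and 27.4% were longer and 16.5, 56.4, 47.5 and 24.7% shorter. At 3000 bp, 46.7% were shorter in prepupae than in larvae and 18.8% longer in S2 cells than in embryos. Arm shares stayed within their intervals at 3000 bp and with wide peaks. The median distance to the nearest region was 2148 bp between midpoints. With the widest peak's midpoint, offsets were 292 bp (embryo and prepupa), 323 bp (embryo and S2), 183 bp (larva and prepupa) and 239.5 bp (larva and S2). Beyond the changes that follow from construction, the cause was not tested. No paired analysis was possible because the larva, prepupa and S2 lists have 1 library each and the embryo list has no sample here. Depth is unknown and limits every comparison of lengths.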
